A study of Mus musculus with 6 samples.

Results

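The nucleolar ribosome biogenesis genes are 45 mouse genes, listed by name, whose products transcribe ribosomal RNA (rRNA), process it and assemble the ribosomal subunits. They were followed in haematopoietic stem cells that lack Hlf, which encodes a PAR bZIP transcription factor, and in stem cells of littermates. Of the 45 members, 44 were found among the 23574 genes of the deposited tables, and 40 of these had enough counts for a test, out of 10204 genes tested. Noc2l was not analysed here. The other 4 (Nolc1, Wdr12, Gnl3 and Nip7) had between 0 and 39 counts over all libraries.

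RNA sequencing was done on 2 groups of C57BL/6 mice, labelled HLF KO (3 libraries) and wild type (WT, 3 libraries of littermates). Each library came from 3000 freshly isolated cells sorted for Sca-1 and c-Kit and against lineage markers, CD34 and Flt3. The sources used here do not state which part of Hlf was removed, the age of the mice or how many mice stand behind a library. A p-value therefore reflects variation among 6 libraries, some of which may be technical. The comparison addresses how the loss of Hlf changes gene expression in stem cells.

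Ribosomes are built in the nucleolus. RNA polymerase I copies the rRNA genes, small nucleolar ribonucleoproteins (snoRNPs) modify the transcript, and separate sets of factors then cut, fold and export the small and the large subunit. Output of this pathway is known to be low in resting cells and to be raised by Myc and mTORC1 signalling when cells grow, and haematopoietic stem cells are known for a low rate of protein synthesis.

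Hlf, the targeted gene, stood at 28.3, 37.6 and 37.3 CPM (counts scaled to library size) in HLF KO libraries 1 to 3, against 1370.0, 1662 and 1114 CPM in WT libraries 1 to 3, and it fell by 5.33 on the log2 scale (SE 0.26, adjusted p = 1.91e-06 by edgeR's quasi-likelihood test with Benjamini-Hochberg adjustment). Library totals were 10182464 to 11998296 counts in HLF KO and 8346335 to 9902102 in WT, so every HLF KO library was the deeper. Stem cell markers were present, with counts for 12 of 13, and summed to 903.7 to 1140.6 CPM in HLF KO and 1187.1 to 1310.3 CPM in WT. Every HLF KO library was thus the lower. Their mean log2 CPM, 4.89 to 5.47 in HLF KO and 5.52 to 5.71 in WT, did not overlap either. Gata2 was the largest part of the sum, at 517.05 to 676.85 CPM in HLF KO and 473.37 to 587.83 CPM in WT, which overlap. Of the 12 stem cell markers tested, 4 were higher in HLF KO and 8 lower. Of the genes of the sort, Kit, Ly6a and Cd34 have several listed transcripts and too few counts to read (1, 0 and 24 in all). Flt3, which the sort selected against, has 1 listed transcript and had 118, 198 and 103 counts in HLF KO libraries 1 to 3, against 88, 318 and 160 counts in WT libraries 1 to 3. The granulocyte-monocyte markers, all but 1 of 13 with a count, summed to 77.9 to 219.3 CPM in HLF KO, and to 262, 137.3 and 2772.5 CPM in WT libraries 1 to 3. The 11 B cell markers summed to 139.8 to 300.1 CPM in HLF KO and to 760 to 5625.2 CPM in WT, most of it from Jchain. WT library 3 was the highest for both lists. WT library 1 had the fewest genes with a count, 10796, and the other libraries had 11341 to 12331. Megakaryocyte markers, 8 of 9 with a count, summed to 948.6 to 1250.9 CPM in HLF KO and 519.4 to 780.8 CPM in WT, with no overlap. By mean log2 CPM over the 7 tested they did overlap, at 5.84 to 6.52 in HLF KO and 4.83 to 6.10 in WT. T and NK cell markers, with 1 of 10 at 0, summed to 351.8 to 633.9 CPM in HLF KO and 130.4 to 260.6 CPM in WT, and these sums did not overlap. Nkg7 alone had 254.0 to 462.7 CPM in HLF KO and 71.4 to 156.3 CPM in WT. Cd3e had 19.2 to 21.2 CPM in HLF KO, against 83.5, 47.4 and 2.8 CPM in WT. Cd4 had 0.6 to 9.7 CPM in HLF KO and 11.9 to 39.7 CPM in WT. Of the 8 tested, 5 were higher in HLF KO and 3 lower. Mean log2 CPM over the 8 overlapped, at 3.10 to 3.55 in HLF KO and 1.52 to 3.36 in WT. Erythroid markers, with 3 of 11 at 0, summed to 2328.8 to 2957.1 CPM in HLF KO and 1925.8 to 2421.6 CPM in WT, which overlap. Their mean log2 CPM, 6.13 to 6.43 in HLF KO and 5.79 to 5.97 in WT, did not. Most of the sum came from Car2, and of the 8 erythroid markers tested 6 were higher in HLF KO and 2 lower. The part of other cell types in the results was not tested.

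No member passed edgeR's quasi-likelihood test between HLF KO and WT. At an adjusted p under 0.05 there were 0 members of 40, beside 1 gene (Hlf) of all 10204, or 0.0098%, and the members' adjusted p-values lay between 0.653 and 0.998. DESeq2 called 0 members as well, beside 1.26% of all genes with an adjusted p. At an unadjusted p under 0.05 there was 1 member with a higher level in HLF KO, Heatr1, or 2.5% of 40 beside 2.63% of all genes, and 0 with a lower level beside 4.65%. Both shares were near or under those of all genes. The count of members with a higher level was 6 of 41 without WT library 1 (14.6%, beside 4.15% of all genes) and 0 without HLF KO library 2 (beside 1.45%).

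The members leaned towards higher levels in HLF KO without passing the test. Of 40, 30 (75%) had a positive log2 fold change, beside 47.2% of all genes, and the median was 0.17 (range -0.78 to 1.15) beside -0.05. For 6 members every HLF KO library lay above every WT library, or 15% beside 7.52% of all genes. For 0 members every HLF KO library lay below every WT library, beside 6.85%. Among genes with 1 listed transcript and a mean log2 CPM of at least 5, a closer match in abundance, 27 of 36 members (75%) were positive beside 49% of 4903 genes, with medians of 0.15 and -0.01. These shares are descriptions, and no test was made of the list.

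The mean log2 CPM over the 40 members was 6.59, 6.78 and 6.70 in HLF KO libraries 1 to 3, against 6.34, 6.60 and 6.37 in WT libraries 1 to 3. HLF KO library 1 and WT library 2 were level, and the other 2 WT libraries were the lowest. The means were 6.69 ± 0.09 in HLF KO and 6.44 ± 0.14 in WT (SD, n = 3 each), a difference of 0.25 log2 units, which ran from 0.21 to 0.32 when 1 library was left out. Without WT library 3, which carried the granulocyte-monocyte markers, it was 0.22, and without WT library 1 it was 0.21. With all libraries thinned to the same depth it was 0.24. WT library 1 held the lowest value of 14 members (35%), beside 27.3% of all genes, and WT library 3 that of 9 (22.5%), beside 12.5%. HLF KO library 2 held the highest value of 10 members (25%), beside 14.5% of all genes.

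**Figure D1:**
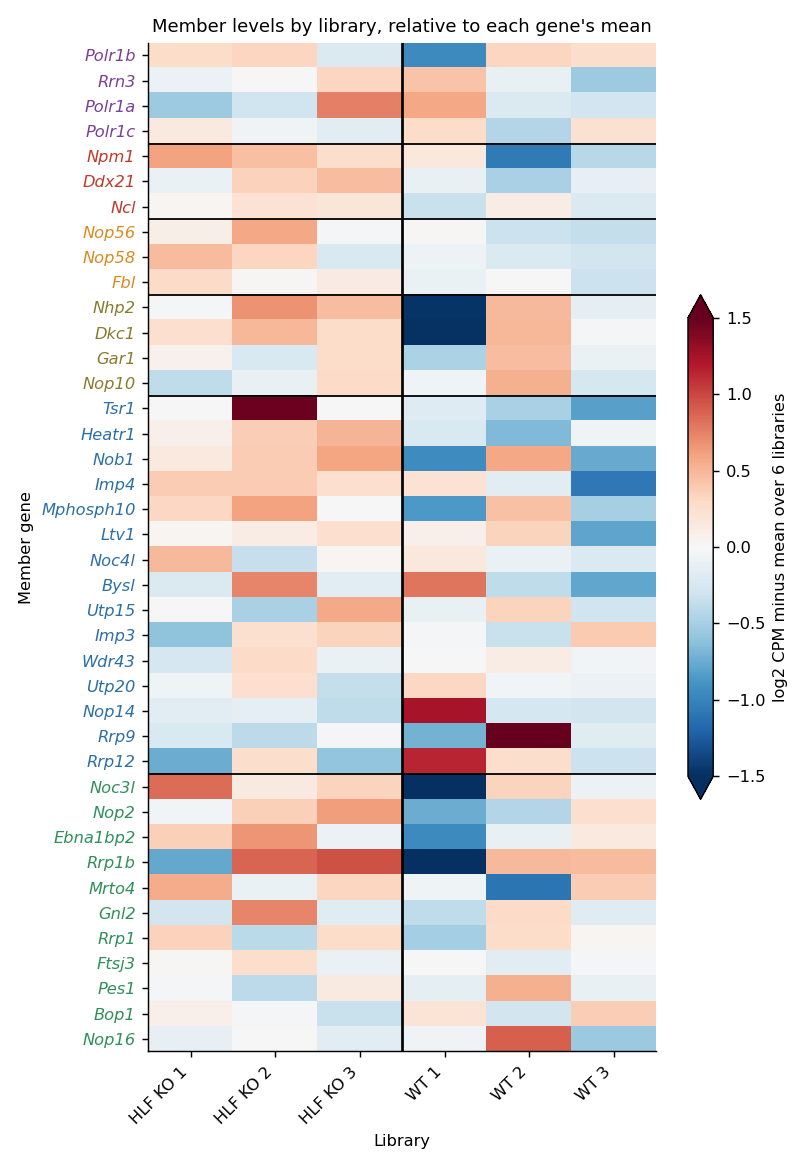
Level of each of the 40 tested members (rows, grouped and coloured by role from RNA polymerase I at the top to the large subunit at the bottom) in each library (columns, HLF KO 1 to 3 left and WT 1 to 3 right), as log2 CPM minus the gene's mean over 6 libraries; colours are capped at 1.5 units either way. WT 1 has the lowest value of 14 members, and single libraries stand out for Tsr1 (HLF KO 2) and Rrp9 (WT 2).

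**Figure D2:**
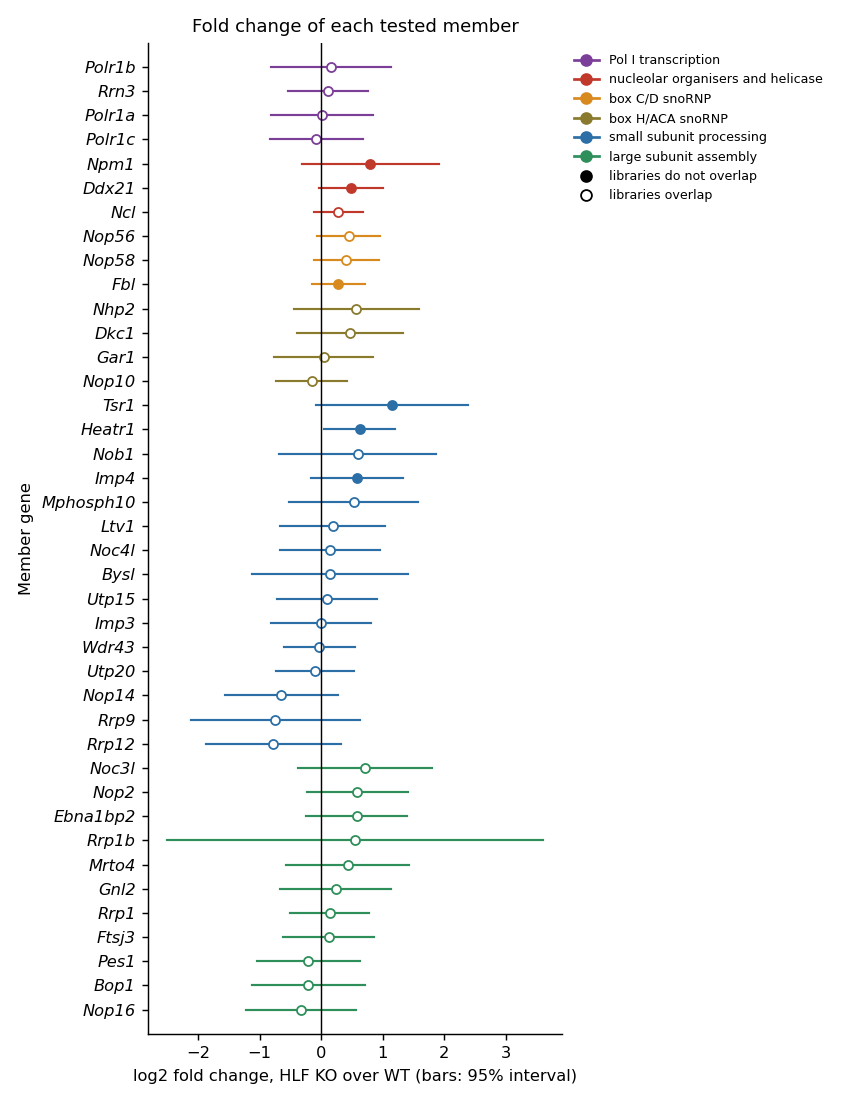
The log2 fold change, HLF KO over WT, of each tested member (points) with its 95% interval (bars), coloured by role; filled points mark the 6 members whose libraries do not overlap. The interval of 1 member, Heatr1, leaves out 0, and 30 of 40 points lie to the right of 0.

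Nucleolar organisers and their helicase had positive values throughout. Ncl encodes nucleolin, an abundant protein that binds nascent rRNA. It stood at 1695, 1943 and 1896 CPM in HLF KO libraries 1 to 3, against 1323, 1797 and 1435 CPM in WT libraries 1 to 3. WT library 2 lay between the HLF KO libraries, so the groups overlapped, and the log2 fold change was 0.28 (SE 0.18, 95% interval -0.12 to 0.68, adjusted p = 0.744). Npm1 encodes nucleophosmin, a histone and ribosome chaperone known for mutations in human acute myeloid leukaemia. Npm1 had 52.5, 47.2 and 41.6 CPM in HLF KO, against 38.7, 16.4 and 25.9 CPM in WT. The groups did not overlap, by the small gap between HLF KO library 3 and WT library 1, and its log2 fold change was 0.80 (SE 0.51, adjusted p = 0.744). All of its counts came from 1 of its 3 listed transcripts, so they do not stand for the whole gene.

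Ddx21, an RNA helicase that acts in rRNA transcription and processing, stood at 270.7, 369.8 and 401.5 CPM in HLF KO, against 269.7, 207.3 and 267.4 CPM in WT. HLF KO library 1 was level with WT libraries 1 and 3, and the groups overlapped under DESeq2's size factors (HLF KO lowest 267.5, WT highest 274.8) and with counts thinned to the same depth (262.4 and 270.7). The log2 fold change was 0.49 (SE 0.24, adjusted p = 0.688). Nolc1, a chaperone of snoRNPs, had 0 counts over its 4 listed transcripts, a class of genes with few counts in these tables, and its level is unknown.

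The core proteins of box C/D snoRNPs, which guide ribose methylation of rRNA, were all 3 positive. Fbl, the methyltransferase fibrillarin, stood at 607.7, 506.5 and 544.0 CPM in HLF KO, against 465.3, 500.6 and 400.0 CPM in WT. The groups did not overlap, though HLF KO library 2 and WT library 2 were nearly level, and the log2 fold change was 0.28 (SE 0.20, adjusted p = 0.77). Nop56, a scaffold of the same particle, had 413.0, 578.5 and 381.7 CPM in HLF KO, against 393.5, 310.6 and 303.1 CPM in WT. HLF KO library 2 was the high one, and the log2 fold change of 0.45 (SE 0.23, adjusted p = 0.704) was 0.26 without it. Its partner Nop58 had 402.2, 361.2 and 247.9 CPM in HLF KO, against 274.9, 249.0 and 238.1 CPM in WT, with HLF KO library 3 among the WT values. The log2 fold change of Nop58 was 0.41 (SE 0.24, adjusted p = 0.729).

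Box H/ACA snoRNPs convert uridines of rRNA to pseudouridine. Dkc1 encodes their enzyme dyskerin, which is altered in human dyskeratosis congenita. It stood at 280.9, 334.3 and 285.6 CPM in HLF KO, against 84.4, 335.1 and 230.9 CPM in WT. WT library 1 was far below the rest and WT library 2 the highest of all 6, so the log2 fold change of 0.47 (SE 0.39, adjusted p = 0.812) was 0.10 without WT library 1 and 0.94 without WT library 2. Nhp2, a core protein of the particle, showed the same low library, with 81.2, 131.7 and 114.1 CPM in HLF KO, against 29.6, 115.6 and 74.9 CPM in WT. Its log2 fold change was 0.57 (SE 0.46, adjusted p = 0.804) and was 0.21 without WT library 1 and 1.07 without WT library 2. The other core proteins stood near 0, Gar1 at 0.04 (SE 0.37) and Nop10 at -0.15 (SE 0.27). For Nop10 the values were 309.1, 370.8 and 491.8 CPM in HLF KO, against 384.4, 581.8 and 335.7 CPM in WT, with full overlap.

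RNA polymerase I genes had the smallest difference of the 6 roles. The largest subunit, Polr1a, had 116.7, 138.6 and 288.0 CPM in HLF KO, against 254.5, 145.9 and 138.7 CPM in WT, with 1 high library in each group. Its log2 fold change was 0.01 (95% interval -0.82 to 0.84), with signs that turned between scalings, and -0.49 without HLF KO library 3. Polr1b, the other large subunit, had 70.5, 73.0 and 50.2 CPM in HLF KO, against 30.0, 73.0 and 70.4 CPM in WT. WT library 1 alone was low, and the log2 fold change was 0.16 (SE 0.45). Polr1c, which RNA polymerase III shares, stood at -0.08 (SE 0.35) and the initiation factor Rrn3 at 0.11 (SE 0.30). The mean log2 CPM of the 4 genes was 6.86 ± 0.12 in HLF KO and 6.79 ± 0.11 in WT (SD, n = 3 each). The 95% intervals of Polr1a, Polr1c and Rrn3 stayed under 1 log2 unit either way, so a 2-fold difference lay outside them.

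Of 15 genes for cutting and assembling the small subunit, 10 were positive (66.7%, beside 47.2% of all genes). For 3 of them (20%, beside 7.52% of all genes) every HLF KO library lay above every WT library. Heatr1, the mouse counterpart of a yeast protein that links rRNA transcription to early processing, had 197.3, 240.3 and 265.7 CPM in HLF KO, against 159.5, 118.0 and 178.4 CPM in WT. All HLF KO libraries were above all WT libraries under each of the 4 scalings compared. The log2 fold change was 0.63 (SE 0.27, 95% interval 0.04 to 1.21, unadjusted p = 0.0376, adjusted p = 0.653), and the unadjusted p reached 0.127 without HLF KO library 3.

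Imp4, which joins the early processing particle as a complex with Imp3 and Mphosph10, had 165.9, 166.7 and 152.2 CPM in HLF KO, against 148.9, 113.5 and 60.7 CPM in WT. The HLF KO libraries were close together and WT library 3 was the low one. Its log2 fold change was 0.59 (SE 0.35, adjusted p = 0.729), with 0.30 without WT library 3 and 0.91 without WT library 1. Under DESeq2's size factors the groups overlapped by a narrow margin (HLF KO lowest 151.4, WT highest 151.7). The partners stood at 0.53 for Mphosph10 (SE 0.48, 0.30 without WT library 1 and 1.01 without WT library 2) and 0.01 for Imp3 (SE 0.37, with signs that turned between scalings).

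Tsr1, a late assembly factor of the small subunit, had the largest positive log2 fold change of the members, 1.15 (SE 0.57, 95% interval -0.09 to 2.39, adjusted p = 0.688). It stood at 32.1, 88.8 and 31.9 CPM in HLF KO, against 27.9, 22.8 and 18.1 CPM in WT. The groups did not overlap, but HLF KO library 2 was far above the rest, and without it the log2 fold change was 0.50. Of the other small subunit genes, Nob1, the endonuclease that trims the precursor of small subunit rRNA, stood at 0.59 (SE 0.58), at 0.34 without WT library 1 and at 1.25 without WT library 2. Ltv1, Noc4l, Bysl and Utp15 lay between 0.10 and 0.19, and Wdr43 and Utp20 between -0.10 and -0.03. The lowest values were those of Nop14 (-0.65), Rrp9 (-0.75) and Rrp12 (-0.78), each with a high WT library.

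Among the 15 members for assembling the large subunit, 11 were tested and 8 were positive (72.7%, beside 47.2% of all genes). Libraries that did not overlap were found for 0 of them, beside 7.52% of all genes higher and 6.85% lower. Nop2, an rRNA cytosine methyltransferase, had 82.1, 108.0 and 130.6 CPM in HLF KO, against 50.3, 62.2 and 100.4 CPM in WT. WT library 3 lay within the HLF KO range, and the log2 fold change was 0.59 (SE 0.38, adjusted p = 0.744). Ebna1bp2 had 121.5, 150.2 and 89.1 CPM in HLF KO, against 48.7, 88.0 and 105.2 CPM in WT, a log2 fold change of 0.58 (SE 0.38). Noc3l had 98.7, 60.3 and 69.1 CPM in HLF KO, against 18.7, 69.2 and 51.5 CPM in WT, a log2 fold change of 0.71 (SE 0.50). WT library 1 was the lowest of all for these 3 genes. Without it their values were 0.41, 0.33 and 0.35.

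Bop1 and Pes1, which act as a complex with Wdr12 in large subunit rRNA processing, were both slightly negative. Bop1 had 52.1, 48.0 and 38.9 CPM in HLF KO, against 56.6, 40.5 and 63.7 CPM in WT, with overlap, and its log2 fold change was -0.21 (SE 0.42, adjusted p = 0.945). Pes1 stood at -0.21 (SE 0.39), and Wdr12 was not tested, with 11 counts over 3 listed transcripts. The remaining genes ran from -0.32 for Nop16 to 0.56 for Rrp1b (SE 1.40, on 169 counts in all). Rrp1, Gnl2, Ftsj3 and Mrto4 lay between 0.12 and 0.43. Gnl3, which encodes nucleostemin, had 39 counts over 2 transcripts and Nip7 had 0 over 3, so neither level is known.

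**Figure D3:**
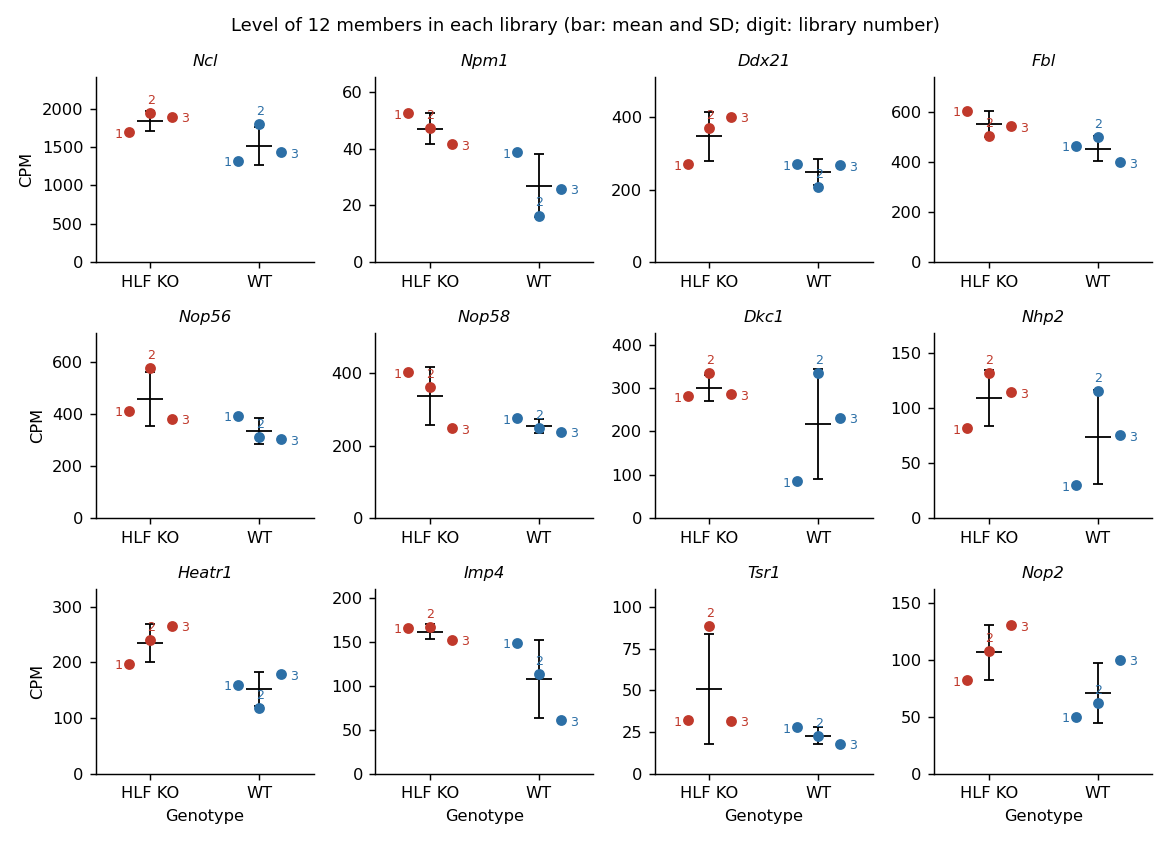
CPM of 12 members in each library (HLF KO in red left, WT in blue right; digits give the library number, black bars the mean and SD of 3). Dkc1 and Nhp2 have a low WT library 1, Tsr1 a high HLF KO library 2 (88.8 CPM), and Heatr1 keeps its HLF KO libraries (197.3 to 265.7 CPM) above its WT libraries (118.0 to 178.4 CPM).

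By role, the mean log2 CPM was 0.55 units higher in HLF KO for the 3 organiser and helicase genes, 0.37 for box C/D, 0.34 for box H/ACA, 0.29 for the large subunit, 0.17 for the small subunit and 0.08 for RNA polymerase I. For the organiser and helicase genes it was 8.18, 8.34 and 8.31 in HLF KO, against 7.91, 7.52 and 7.75 in WT. By this mean the 3 HLF KO libraries lay above the 3 WT libraries for this role. The summed levels overlapped, at 2018.4 to 2359.8 CPM in HLF KO and 1631.7 to 2020.9 CPM in WT. The largest log2 fold change of the role was that of Npm1 (0.80, beside 0.28 for Ncl and 0.49 for Ddx21). Npm1 was counted from 1 of its 3 listed transcripts. Box C/D genes stood at 8.86, 8.89 and 8.54 in HLF KO, against 8.53, 8.40 and 8.26 in WT, so HLF KO library 3 was nearly level with WT library 1. Large subunit genes stood at 5.91, 6.01 and 5.98 in HLF KO, against 5.25, 5.88 and 5.88 in WT, with WT library 1 far below the other libraries. In the box H/ACA role the WT libraries spread from 6.45 to 7.82 around HLF KO values of 7.30 to 7.65. Differences between roles were not tested.

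**Figure D4:**
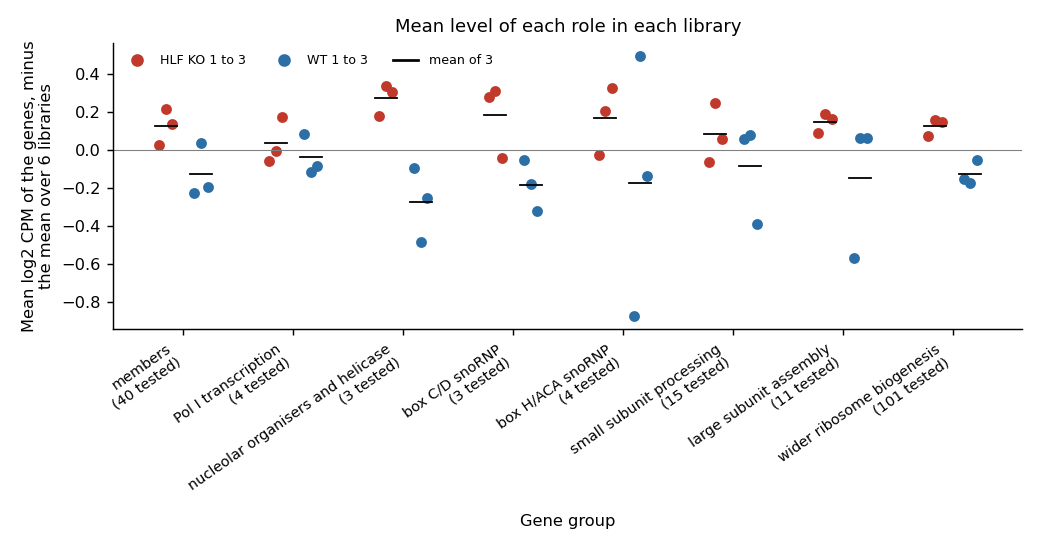
Mean log2 CPM of all tested members, of each role and of the wider ribosome biogenesis list in each library, minus the mean over 6 libraries (HLF KO 1 to 3 in red left, WT 1 to 3 in blue right; lines are means of 3). By this mean HLF KO libraries lie above WT libraries for the organiser and helicase genes, box C/D, the large subunit and the wider list. By summed CPM, of these only box C/D does not overlap. Box H/ACA has the widest spread among WT libraries.

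The members did not vary together closely across the 6 libraries. Pearson's r of log2 CPM over 780 member pairs had a median of 0.11 and exceeded 0.5 for 20.8% of pairs, beside a median of 0.00 and 18.5% over all gene pairs. All pairs share the same 6 libraries and their depths, so these are descriptions. The members took up 0.722%, 0.796% and 0.72% of all counts in HLF KO libraries 1 to 3, against 0.574%, 0.671% and 0.591% in WT libraries 1 to 3. Every HLF KO share was above every WT share. With TMM scaling the summed levels overlapped, at 6907.8, 7635.8 and 7482.6 CPM in HLF KO, against 6096.7, 6915.2 and 5765.6 CPM in WT. Ncl was the largest contributor, with 101691 counts in all.

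Precision set what could be seen. The median SE of a member's log2 fold change was 0.38, beside 0.59 for all genes, and ran from 0.18 for Ncl to 1.40 for Rrp1b. The 95% interval stayed under an increase of 1 log2 unit (2-fold) for 22 of 40 members and within 1 unit either way for 16. For the rest the interval did not exclude a 2-fold difference, and an interval that excludes it does not show that a 2-fold difference would have passed the test. In bulk libraries, fewer cells with a transcript and less RNA per cell cannot be told apart.

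Other genes of the pathway, in a list of 116 with 101 tested and none of them members, were counted in the same way. Of these 65 (64.4%, beside 47.2% of all genes) were positive, the median log2 fold change was 0.16, and 9 (8.91%, beside 7.52% of all genes) had HLF KO libraries above all WT libraries while 2 had them below (beside 6.85%). At an unadjusted p under 0.05 there were 3 with a higher level in HLF KO (2.97%, beside 2.63% of all genes) and 2 with a lower level (beside 4.65%), and 0 passed when adjusted over all genes. Mean log2 CPM over the list was 6.02, 6.10 and 6.09 in HLF KO, against 5.79, 5.77 and 5.89 in WT, with no overlap. The summed levels did overlap, at 8937.2, 9077.8 and 9291.8 CPM in HLF KO, against 9076, 8319.3 and 8054.1 CPM in WT.

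Utp23, a small subunit processing factor, had 13.8, 30.0 and 28.6 CPM in HLF KO, against 1.0, 3.6 and 6.4 CPM in WT. Its log2 fold change was 2.70 (SE 0.93, unadjusted p = 0.0135, adjusted p = 0.562), and it was also the largest on this list. Brix1, a large subunit assembly factor, stood at 1.04 (SE 0.40), with 0.69 without HLF KO library 2 and 1.275 without WT library 1. Eif6, which keeps unfinished large subunits from joining, stood at 0.90 (SE 0.44), with 0.60 without WT library 2 and 1.48 without WT library 3. Mtrex, the helicase of the nuclear RNA exosome, stood at 0.70 (SE 0.27), with 0.555 without HLF KO library 1 and 0.86 without WT library 1. Negative values were those of Dhx37, a small subunit helicase, and of Wdr18. Dhx37 stood at -1.36 (SE 0.51), with -0.86 without WT library 1 and -1.73 without WT library 3. Wdr18 stood at -1.05 (SE 0.45), with -0.49 without WT library 2 and -1.37 without WT library 3.

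Lists on either side of the pathway differed in size. Of 70 tested cytosolic ribosomal protein genes 54.3% were positive (beside 47.2% of all genes), with a median of 0.02. Of these 1 (1.43%, beside 2.63% of all genes) had an unadjusted p under 0.05 with a higher level in HLF KO, and 0 with a lower level (beside 4.65%). Of 24 tested DNA replication genes 91.7% were positive (beside 47.2% of all genes), with a median of 0.49. Such a p with a higher level in HLF KO was found for 6 (25%, beside 2.63% of all genes). Members thus stood between both lists by their median, and the differences between lists were not tested.

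**Figure D5:**
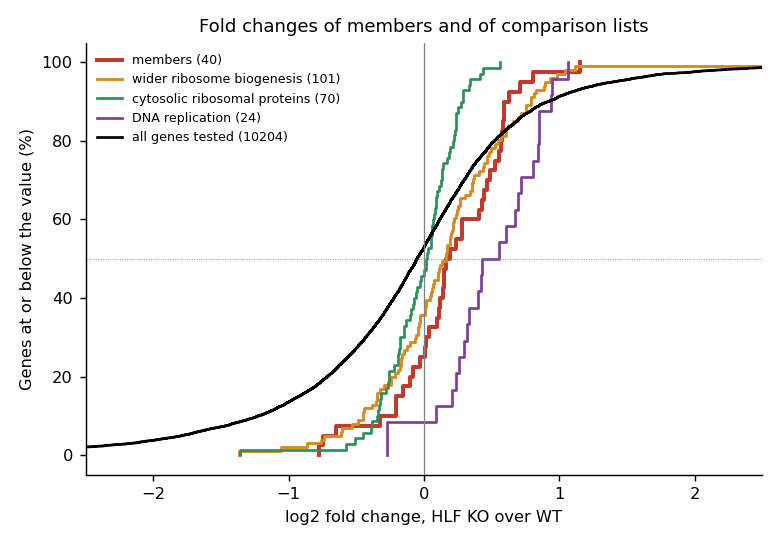
Cumulative share of genes (vertical axis, percent) at or below each log2 fold change of HLF KO over WT (horizontal axis, shown from -2.5 to 2.5) for the members, the wider ribosome biogenesis list, cytosolic ribosomal proteins, DNA replication genes and all genes tested; numbers of genes are in the legend. The curve of the members crosses the 50% line at 0.17, that of all genes at -0.05 and that of DNA replication at 0.49.

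Upstream of the pathway, Myc could not be read, with 0 counts over its 4 listed transcripts. Mycn, its close relative, had 192.0, 217.4 and 279.8 CPM in HLF KO, against 52.0, 127.7 and 116.5 CPM in WT. All HLF KO libraries were above all WT libraries, with a log2 fold change of 1.22 (SE 0.35, unadjusted p = 0.0051, adjusted p = 0.466). Mnt, which represses Myc targets, had 61.6, 54.4 and 44.9 CPM in HLF KO, against 80.3, 146.1 and 87.7 CPM in WT. Its log2 fold change was -0.97 (SE 0.38, adjusted p = 0.637), and -0.64 without WT library 2. Tsc1, part of the complex that restrains mTORC1, had 47.3, 53.2 and 70.3 CPM in HLF KO, against 134.7, 142.3 and 87.5 CPM in WT. The groups did not overlap, and the log2 fold change was -1.09 (SE 0.36, unadjusted p = 0.0102, adjusted p = 0.524). Of the other mTORC1 genes tested, Mtor (-0.33), Rptor (-0.62), Rps6kb1 (-0.12), Rps6kb2 (-1.60) and Eif4ebp1 (-0.28) were negative. Rheb (0.40) and Eif4e (0.55) were positive, and of all these only Eif4e had groups that did not overlap. Of the 14 tested genes of the Myc network and mTORC1 inputs, 4 were positive (28.6%, beside 47.2% of all genes, median -0.39). An unadjusted p under 0.05 was found for 1 with a higher level (7.14%, beside 2.63% of all genes) and 2 with a lower level (beside 4.65%). When adjusted over all genes, 0 passed. The list holds genes that promote and genes that restrain these inputs, so its counts give no single direction.

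The promoters were read to see what the members share beyond their roles. RefSeq starts (GRCm38.p6, a later build than the authors' mm9) were available for 40 of the 45 genes, and the 250 bases before each start were searched on both strands. The ETS site CCGGAAGT was found for 6 of 40 members (15%), beside 6.88% of 8052 tested genes and 3.23% of all 27025 genes with a promoter. These 40 are not the 40 tested members. They include genes that were not tested, such as Nip7, which holds an ETS site. The E-box CACGTG, which Myc and Max can bind, was found for 3 (7.5%), beside 9.46% of tested genes and 6.86% of all. The PAR bZIP sites TTACGTAA and TTATGTAA, of the kind Hlf binds, were each found for 0 of 40, beside 0.186% and 0.571% of tested genes and 0.118% and 0.977% of all. No 2 of these motifs overlap in the sequences shown. A match of letters is not a bound site, and a missing match says only that these letters are not in this window.

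The last 130 bases before the start are shown for members whose values were described above, 5′ to 3′ on the strand of the gene, with matched motifs in capitals. Heatr1 holds an ETS site, with its first base 16 bases before the start, and Imp4 and Nop2 hold an E-box at 121 and 60 bases. Motifs were also found in members not shown. Rrn3 (log2 fold change 0.11) holds E-boxes at 215 and 48 bases. ETS sites are held by Gar1 (0.04), Polr1c (-0.08), Ltv1 (0.19), Nhp2 (0.57) and Nip7, which was not tested. Ddx21 and Tsr1 hold none of the motifs in the 250 bases searched. The windows are chr13:12395245-12395374 (plus strand) for Heatr1, chr1:34439699-34439828 (plus) for Imp4, chr6:125131753-125131882 (plus) for Nop2, chr10:62602299-62602428 (minus) for Ddx21 and chr11:74897950-74898079 (plus) for Tsr1.
Heatr1: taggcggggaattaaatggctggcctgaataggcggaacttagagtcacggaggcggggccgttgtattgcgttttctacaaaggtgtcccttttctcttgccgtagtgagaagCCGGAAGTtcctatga
Imp4: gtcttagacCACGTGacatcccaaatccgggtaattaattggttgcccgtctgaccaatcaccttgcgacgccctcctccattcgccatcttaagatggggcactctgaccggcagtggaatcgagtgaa
Nop2: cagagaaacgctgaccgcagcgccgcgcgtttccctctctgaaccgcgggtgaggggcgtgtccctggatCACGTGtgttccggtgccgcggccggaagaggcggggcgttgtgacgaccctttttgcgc
Ddx21: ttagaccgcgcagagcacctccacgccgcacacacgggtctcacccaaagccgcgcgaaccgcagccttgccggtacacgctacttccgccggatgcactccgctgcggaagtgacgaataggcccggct
Tsr1: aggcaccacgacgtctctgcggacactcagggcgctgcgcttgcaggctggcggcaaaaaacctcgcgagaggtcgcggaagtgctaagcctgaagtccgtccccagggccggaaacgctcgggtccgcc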

How the data were processed

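For each of 6 libraries the authors deposited raw counts, as whole numbers, for RefSeq transcripts. TopHat and build mm9 are named, per the submitters' processing notes, while the sources used here do not give the counting tool, annotation release, strand use or handling of shared reads. Of 30858 transcripts, 30363 were named from a RefSeq table (GRCm38.p6) and 179 from GENCODE, and 316 kept their accession. Counts were summed per gene. The median total over all libraries was 79 counts for genes of 1 transcript (38 members) and 3 for genes of 2.

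HLF KO was compared with WT by edgeR 4.0.16 in R 4.3.3: TMM factors, filterByExpr (minimum count 10, minimum total 15), the robust quasi-likelihood F test without covariates, and Benjamini-Hochberg adjustment over 10204 genes. CPM took library size times TMM factor as the total, with a prior count of 2 on the log2 scale. Standard errors came from the F statistic. The scripts were tested on simulated data. Alternatives used DESeq2 1.42.0, limma 3.58.1, other scalings and filters, thinned counts, 1-transcript genes, a replicate block and each library left out.

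Named are the 3 members of smallest unadjusted p per role, those whose groups do not overlap, those that 1 left-out library moved across an unadjusted p of 0.05, the best known member of each role, the 6 wider and 3 Myc-mTORC1 genes of smallest p, and Myc. Other members, and the other tested mTORC1 genes, are given by their fold changes. The members and lists were chosen with earlier results of these data known. Levels were not compared between genes, for want of matching transcript lengths, and protein features were not analysed here.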

Additional observations from a re-analysis of the deposited data

How the results depend on the processing

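No member was called under any of the 15 alternatives (0 at an adjusted p under 0.05, smallest 0.362, without WT library 3), and Hlf was called under all of them (log2 fold change -5.46 to -5.17 with 1 library left out). The number of members with an unadjusted p under 0.05 was 2 with library totals only (5%, beside 3.16% of all genes with a higher level). It was also 2 with DESeq2's Wald test (5%, beside 3.46%). It was 0 with the replicate block (beside 2.7%) and 0 to 6 with 1 library left out, and all such members were higher in HLF KO. The share of all genes with such a p and a higher level ran from 1.45% to 5.67% with 1 library left out. For the wider list the count in either direction was 1 without HLF KO library 3 (0.962%, beside 5.68% of all genes) to 14 without WT library 3 (13.6%, beside 11.7%). The mean member difference lay between 0.209 and 0.32, and the number of positive members between 25 (of 40, without WT library 3) and 33 (of 41, without WT library 2). That of members with no overlap was 4 to 7 over scalings and filters, for which the share of all genes was taken only in the main fit (7.52%). It was 8 to 12 with 1 library left out, where the share of all genes was 11.4% to 16.6%. The 6 members named as not overlapping all remained so, but this is no check, since leaving out a library can undo a separation only through the scaling. The counts of positive members and of members with no overlap were chosen after seeing the data.

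Same-numbered libraries were no more alike than others. Their deviations from the group means correlated at -0.01, -0.022 and 0.02, and those of differently numbered libraries at -0.039 to 0.047. With 3 libraries per group this cannot exclude a pairing. The mean member difference cannot change with the block, and has no value under DESeq2's test or limma-voom.

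Scaling, filter, tool or block turned the signs of 3 members near 0. Imp3 (0.006) stood at -0.011 under DESeq2's size factors, the stricter filter and DESeq2's test, at -0.012 under limma-voom, at -0.004 with thinned counts and at -0.02 with the replicate block. Polr1a (0.012) stood at -0.01 under DESeq2's size factors, -0.011 under DESeq2's test, -0.015 under limma-voom and -0.049 with the replicate block. Wdr43 (-0.028) stood at 0.028 with library totals only. With 1 library left out, signs turned for members near 0 and farther from it, within these ranges: Bysl -0.226 to 0.775, Gar1 -0.139 to 0.335, Gnl2 -0.146 to 0.458, Imp3 -0.152 to 0.255, Ltv1 -0.072 to 0.439, Noc4l -0.09 to 0.338, Nop10 -0.345 to 0.125, Nop14 -0.902 to 0.054, Nop16 -0.597 to 0.195, Pes1 -0.319 to 0.052, Polr1a -0.485 to 0.364, Polr1b -0.136 to 0.373, Polr1c -0.266 to 0.06, Rrn3 -0.091 to 0.42, Rrp1 -0.033 to 0.355, Rrp9 -1.099 to 0.226, Utp15 -0.214 to 0.33, Utp20 -0.262 to 0.046 and Wdr43 -0.186 to 0.092. Without a change of sign, Ncl reached 0.427 without WT library 2, Nop58 0.27 without HLF KO library 1, Nop2 0.929 without WT library 3 and Noc3l 1.124 without WT library 2, and Mrto4 ran from 0.126 to 0.784 and Rrp1b from 0.077 to 0.966. The cause was not tested.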

Other observations

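The members of lowest log2 fold change were chosen after their values were seen. Rrp9, a protein of the early processing particle, had 25.7, 22.9 and 29.7 CPM in HLF KO, against 18.3, 86.4 and 26.6 CPM in WT. WT library 2 alone was high, and without it the log2 fold change was 0.23 in place of -0.75. Nop14 had 94.0, 94.8 and 80.6 CPM in HLF KO, against 248.1, 88.0 and 86.7 CPM in WT, with WT library 1 high, and 0.05 without it in place of -0.65. Rrp12 had 29.6, 60.0 and 33.2 CPM in HLF KO, against 110.3, 60.2 and 39.8 CPM in WT, and its log2 fold change of -0.78 was -0.28 without WT library 1. WT library 1 was thus high for Nop14 and Rrp12 and low for Dkc1, Nhp2 and Noc3l, members of the same pathway.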
